A study of Mus musculus with 2 samples.

Results

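The genes of the mitochondrial respiratory chain and ATP synthase were examined in droplet single-cell RNA sequencing of mouse liver. Members were chosen by symbol: genes starting with mt-, Ndufa, Ndufb, Ndufc, Ndufs, Ndufv, Sdh, Uqcr, Cox4, Cox5, Cox6, Cox7, Cox8 or Atp5, without the Ndufaf assembly factors. This gave 103 of the 32285 genes in the count matrix, of which 13 are encoded by mitochondrial DNA and 90 by nuclear chromosomes. The nuclear members comprise 39 of complex I, 8 of complex II, 8 of complex III, 18 of complex IV and 17 of complex V, and the mitochondrial members comprise 7, 0, 1, 3 and 2. The prefixes also take in Sdhaf1 to Sdhaf4, which are assembly factors of complex II, and Ndufb1-ps, annotated as a noncoding RNA. They miss Cyc1, a subunit of complex III.

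The study has 2 samples, a Cebp KO liver and a Cebp WT liver, both from mice fed HFCFD 40% (fat, cholesterol and fructose in excess) for 2 weeks. CEBPA is a liver transcription factor, and the study's question was what its loss from hepatocytes does to livers on this diet. Per the study's methods, hepatocyte-specific deficiency was made by crossing Cebpa fl/fl mice with mice carrying Cre under the albumin promoter, on a C57BL/6N background. The study compared such mice with Cebpa fl/fl mice, while the control label here reads WT. Albumin-driven Cre acts in hepatocytes and may also act in cells that share their origin. The study used male mice, the labels do not give their age, and they name 1 liver per genotype, so there are no replicates.

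Oxidative phosphorylation is carried out by complexes I to IV, which pass electrons from NADH and succinate to oxygen and pump protons, and by complex V, which uses the proton gradient to make ATP. Complexes I, III, IV and V are assembled from subunits of both genomes, whereas complex II is wholly nuclear. The mitochondrial genome is transcribed inside the organelle as long precursors that are cut into polyadenylated mRNAs, while nuclear subunits are transcribed in the nucleus, translated in the cytosol and imported. Hepatocytes are rich in mitochondria, and a high mitochondrial share of reads is widely used in single-cell work as a sign of damaged cells that have lost cytosolic RNA.

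Both libraries were joined in a matrix whose barcodes carry the number 1 or 2 at their end. The labels do not say which number belongs to which liver. The libraries are therefore called suffix 1 and suffix 2, and no genotype was given to either. After a minimum of 500 unique molecular identifiers (UMIs, counted cDNA molecules) and 200 detected genes, 17292 and 14974 droplets remained, with medians of 1516 and 2080 UMIs. Barcodes were not unique to a library: 81 barcode sequences occurred with both suffixes, and all were kept. Cebpa, the targeted gene, was at 0.768 counts per 1000000 UMIs (CPM), from 33 UMIs, in hepatocyte droplets of suffix 1 and at 51.01 CPM (1847 UMIs) in those of suffix 2, and these values were not used to assign a genotype. The deleted part of Cebpa is not described in the labels, and 3' tags may lie outside it. Intervals are 95% and exact, and cover counting error only. They do not include the difference between animals, so no test was made and no p-value is given.

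Mitochondrial genes lie head to tail and in part overlap, which bears on how reads can be assigned to them. All coordinates are those of GRCm38, with genes from GENCODE M21. mt-Atp8 (chrM:7766-7969, plus strand) and mt-Atp6 (chrM:7927-8607) encode subunits of complex V and are carried by a shared mRNA, as are mt-Nd4l (chrM:9877-10173) and mt-Nd4 (chrM:10167-11544) of complex I. The end of each upstream gene is shown because its overlap with the downstream gene, in capitals, is 43 bases long in the former pair and 7 in the latter. The treatment of reads inside the overlaps is not stated in the methods or labels.
mt-Atp8, last 90 bases: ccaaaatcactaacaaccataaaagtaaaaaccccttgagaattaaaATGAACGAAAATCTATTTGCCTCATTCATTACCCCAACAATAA
mt-Nd4l, last 60 bases: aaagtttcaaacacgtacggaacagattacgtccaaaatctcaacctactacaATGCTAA

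Nuclear members have promoters of their own, and 77 RefSeq promoters (GRCm38.p6, 250 bases before to 50 after the start) were found for 72 members. The promoters of Cox6a1 and Cox7a1 are shown as an example with and an example without the motifs searched. They encode isoforms of different complex IV subunits and were chosen for this contrast. Windows without these motifs were not particular to muscle-type isoforms: Cox7a2, Cox5a, Cox7a2l and Atp5g1, which are broadly expressed, held none either. Capitals mark matches to the NRF1 core GCGCATGC and to the ETS motif CCGGAAG, searched on both strands. NRF1 and the ETS factor GABP are known regulators of respiratory chain genes.
Cox6a1, chr5:115348909-115349208, minus strand: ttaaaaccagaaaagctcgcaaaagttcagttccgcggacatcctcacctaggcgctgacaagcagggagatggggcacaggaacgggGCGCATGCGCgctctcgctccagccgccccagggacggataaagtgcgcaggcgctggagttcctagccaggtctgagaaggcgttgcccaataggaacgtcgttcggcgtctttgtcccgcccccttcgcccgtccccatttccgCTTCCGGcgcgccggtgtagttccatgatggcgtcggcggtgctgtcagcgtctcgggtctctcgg
Cox7a1, chr7:30183921-30184220, plus strand: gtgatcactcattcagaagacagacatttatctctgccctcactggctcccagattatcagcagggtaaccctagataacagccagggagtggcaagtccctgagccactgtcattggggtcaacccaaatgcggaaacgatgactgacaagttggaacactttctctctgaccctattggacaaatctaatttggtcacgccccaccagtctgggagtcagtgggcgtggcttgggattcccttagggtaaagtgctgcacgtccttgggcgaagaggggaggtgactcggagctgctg
The window of Cox6a1 holds 32 CpG and is 63% GC. Its 10 capitals in 1 run are a palindrome in which the NRF1 core is read on both strands, and the other capitals are the ETS motif read on the strand opposite to the one printed. The window of Cox7a1 holds none of these motifs, 7 CpG and 53% GC. Over the member promoters, the NRF1 core was found in 10 of 77 (12.99%) against 2.71% of the 32851 promoters in the table, and the ETS motif in 20 (26.0%) against 8.86%. Windows with over 20 CpG were also more frequent, 31 (40.3%) against 24.8%. The NRF1 core and the ETS motif contain CpG, and the part of CpG in their excess was not tested. The YY1 motif AAGATGGC was in 9 (11.7%) against 2.75%, and TATAAA in 10 (12.99%) against 13.6%. Of the YY1 matches 7 were at complex I genes, which hold 35 of the 77 promoters. The ETS motif was in 5 of the 7 promoters of complex II. These are matches of letters and not measured binding.

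In the kept droplets, the 13 mitochondrial members made up 27.8% of all UMIs and the 90 nuclear members 2.55%. Of the nuclear members, 86 had at least 30 UMIs. Cox7b2, Cox8b and Cox8c, known from testis or muscle, had 0 UMIs, which, at 3 UMIs over the hepatocyte droplets of both libraries, allows up to 0.0379 CPM each. For 30 nuclear members the annotation places a gene on the opposite strand over them, and Ndufa13 overlaps Yjefn3 on its own strand. Each UMI counts a molecule at its 3' end, so levels of different genes were compared without scaling by length.

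Droplets were assigned to 14 cell classes by marker genes, as gated classes and not as sorted cells. The gates ask for these markers, so their presence is no independent check of a class. All 10 hepatocyte markers were detected in both libraries (Alb at 32794 and 34718 CPM), as were all 6 T cell markers and all 6 plasmacytoid dendritic markers. Hepatocyte RNA was present in every gate. Hepatocyte markers made up 12.1% and 14.6% of non-mitochondrial UMIs in hepatocytes (suffix 1, then suffix 2, here and below) and 2.72% and 3.31% in T cells. Hepatocyte droplets under 5000 UMIs were then taken as the source of a mixture. Read so, 8.78% to 38.8% of the profile of the other 13 classes would be hepatocyte RNA in suffix 1, and 9.47% to 40.1% in suffix 2.

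By summed UMIs, mitochondrial transcripts took their largest share in hepatocytes. They took 27.6% of the UMIs of 14755 hepatocyte droplets with suffix 1 (interval 27.55% to 27.58%) and 41.5% of those of 12320 droplets with suffix 2 (41.49% to 41.53%). In the other 13 classes the share lay between 4.29% and 16.1% (suffix 1) or 5.12% and 16.9% (suffix 2). Among these, T cells were at 5.31% and 8.10%, Kupffer cells or macrophages at 12.2% and 9.52%, and endothelial cells at 13.4% and 16.9%. The median hepatocyte droplet was at 4.42% with suffix 1, far below the share of the summed UMIs, and at 45.2% with suffix 2. With suffix 1 the median droplet was thus lower than in conventional dendritic cells (8.42%), Kupffer cells or macrophages (5.65%), plasmacytoid dendritic cells (5.02%), cholangiocytes (4.88%) and endothelial cells (4.59%), while with suffix 2 it was above every other class (2.21% to 8.22%). The 10th and 90th percentiles were 0.895% and 60.04% with suffix 1 and 2.52% and 66.1% with suffix 2, so both libraries held droplets of very low and very high share. A share above 25% was found in 36.9% and 68.9% of hepatocyte droplets. Most hepatocyte droplets were shallow, 13428 and 10820 of them having under 5000 UMIs, and whether such droplets held a cell or free hepatocyte RNA alone was not tested.

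Nuclear members were also highest in hepatocytes with suffix 1, whereas with suffix 2 the order depended on what they were divided by. Their summed level in hepatocytes was 35670 CPM (35614 to 35727) in suffix 1, compared with 21051 CPM (21004 to 21099) in suffix 2. T cells were at 21616 CPM (21450 to 21783) and 19452 CPM (19285 to 19621), Kupffer cells or macrophages at 14955 and 14544 CPM, and cholangiocytes, the epithelium of bile ducts, at 27112 CPM (22 droplets) and 24709 CPM (14 droplets). With suffix 2 the cholangiocyte level thus lay above that of hepatocytes. Mitochondrial UMIs fill part of the CPM total, so the level was also taken as CPM of the non-mitochondrial UMIs alone (non-mitochondrial CPM). On that scale hepatocytes were at 49243 and 35991, above all 13 other classes, which ranged from 10499 to 30269 and from 7487 to 26044. Erythroid droplets, from the red cell lineage, were lowest on both scales, at 9813 and 6861 CPM. Taking out the hepatocyte part, with hepatocyte droplets under 5000 UMIs as its source, lowered the non-mitochondrial CPM of these classes. It went from 17028 and 16073 to 8241 and 11802 in Kupffer cells or macrophages. In endothelial cells it went from 20231 and 17859 to 4664 and 10532. In erythroid droplets it left -3011 and 187. A level cannot be negative, so this step took out too much there with suffix 1. How far it did so in other classes was not tested, and the lowered values are rough.

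**Figure D1:**
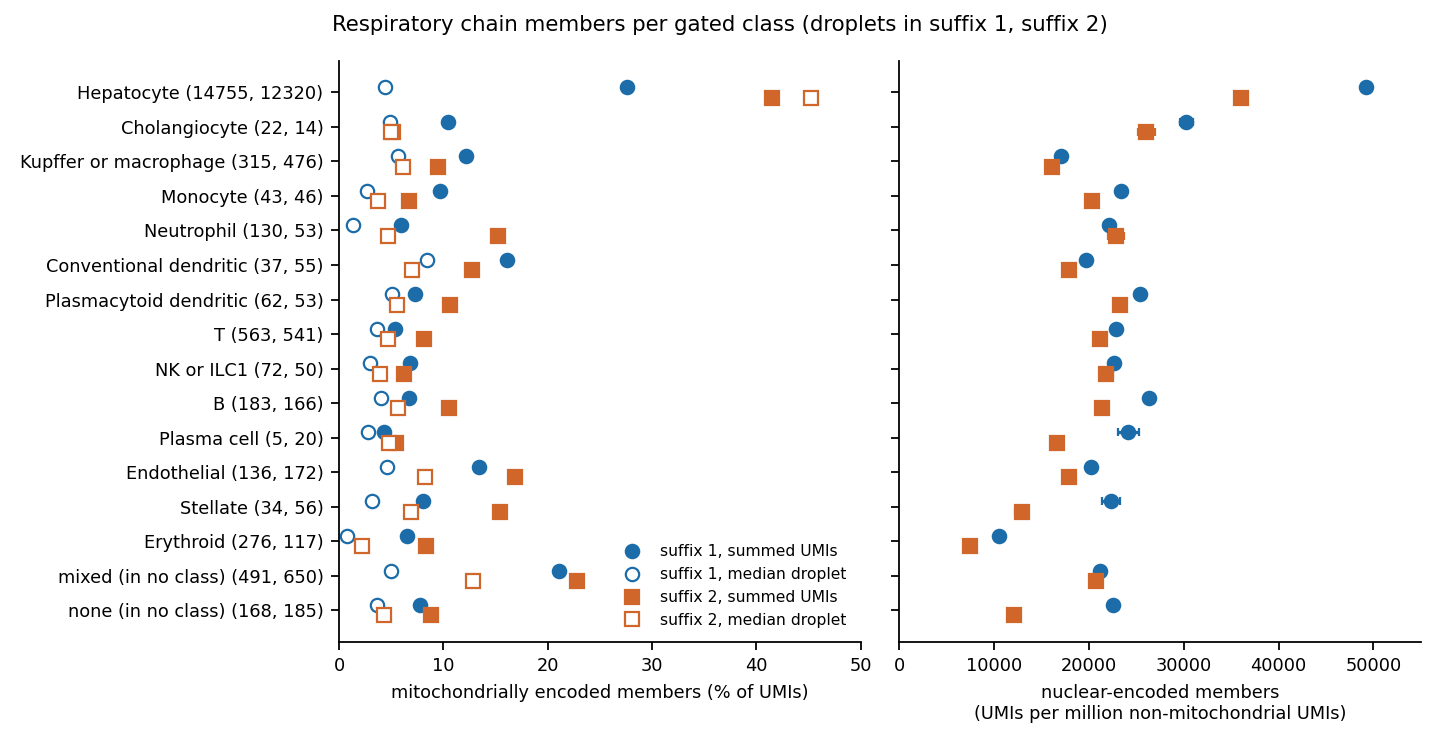
Each gated class is a row, with its droplets in suffix 1 and suffix 2 in brackets; the left panel plots mitochondrially encoded members as a percent of UMIs, with filled symbols for summed UMIs and open symbols for the median droplet, and the right panel plots nuclear-encoded members in non-mitochondrial CPM with 95% Poisson intervals. By summed UMIs hepatocytes lie to the right of the other classes in both panels, but with suffix 1 their median droplet (4.42%) lies to the left of those of 5 other classes. The rows "mixed" and "none" are droplets that entered no class.

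All complexes contributed to the hepatocyte level. Nuclear members of complex I summed to 11556 and 7335 CPM in hepatocytes and to 7125 and 6443 CPM in T cells. Those of complex V were at 10194 and 5650 CPM against 6317 and 5695, and those of complex IV at 8366 and 5088 CPM against 5398 and 4937. Complex III was at 4769 and 2523 CPM against 2309 and 1924, and complex II, the lowest, at 787 and 455 CPM against 467 and 453. With suffix 1 each complex was higher in hepatocytes beyond its interval. With suffix 2 complex V was within the interval of T cells (5605 to 5787 CPM), and so was complex II (428 to 480 CPM).

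Within each complex the level of single subunits in hepatocytes spanned a wide range, and the ends named here are those of both libraries summed. Ndufa4, named for complex I and now regarded as a subunit of complex IV, was at 1657 and 1033 CPM, the highest nuclear member under a complex I prefix, and its hypoxia-linked paralog Ndufa4l2 was the lowest at 1.84 and 1.24 CPM. Sdha, the catalytic flavoprotein of complex II, was at 239.9 and 131 CPM, and the assembly factor Sdhaf3 at 10.9 and 7.43 CPM. In complex III, Uqcrq was at 1313.5 and 718 CPM and the core protein gene Uqcrc1 at 113 and 56.6 CPM. Cox6c led complex IV over both libraries, at 1148 and 651 CPM, nearly level with Cox4i1 at 975 and 853 CPM, which was above it with suffix 2. Atp5e, the epsilon subunit of ATP synthase, led complex V at 1115 and 510.3 CPM, although Atp5g1 (601 CPM) was above it with suffix 2, and Atp5g2 was the lowest of complex V at 309.5 and 189.9 CPM. In CPM of all UMIs, every one of these levels was higher with suffix 1. Mitochondrial UMIs filled 27.6% of that total with suffix 1 and 41.5% with suffix 2. In non-mitochondrial CPM Cox4i1 alone had the opposite order.

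The mitochondrial members were compared as shares of their own sum, which the total of a droplet cannot move. In hepatocytes mt-Atp6 was the highest at 20.9% and 21.5% of mitochondrial UMIs, followed by the complex IV subunit mt-Co3 at 17.9% and 19.3%. mt-Nd6, the 1 mitochondrial member encoded on the opposite strand, was the lowest at 0.151% and 0.141%. mt-Atp8 was at 0.274% and 0.205%, or 1.31% and 0.954% of the mt-Atp6 UMIs whose mRNA it shares. mt-Nd4l was at 12.1% and 10.1% of mt-Nd4 in hepatocytes and at 6.70% and 6.24% in Kupffer cells or macrophages. The downstream gene of each overlapping pair shown above thus held most of the UMIs in both libraries.

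For some of the 13 mitochondrial members, the share of mitochondrial UMIs differed between the libraries in the same direction in nearly all classes. mt-Atp8 and mt-Nd3 took a larger share with suffix 1 in 14 of 14 classes. mt-Nd3, a complex I subunit, was at 1.65% against 1.07% in hepatocytes and at 1.41% against 0.971% in T cells. mt-Nd1, mt-Co2 and mt-Co3 took a larger share with suffix 2 in 14 of 14 classes, and mt-Co1 with suffix 1 in 13 of 14. For mt-Co1, the catalytic subunit of complex IV, hepatocytes were at 14.6% with suffix 1 and 12.1% with suffix 2, and T cells at 15.0% and 12.9%. Other members were divided, mt-Cytb with a larger share with suffix 1 in 8 of 14 classes and mt-Nd4 and mt-Nd6 in 10 of 14. mt-Nd4 was at 6.499% with suffix 1 and 6.01% with suffix 2 in hepatocytes but at 5.64% and 5.80% in T cells. Classes of a library share its preparation and free RNA, so their agreement is not independent, and its source was not tested.

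Droplet depth moved with the mitochondrial share of hepatocytes, and not in one direction. Droplets were grouped with each upper limit left out. At 500 to 1000 UMIs the share was 8.52% with suffix 1 and 9.73% with suffix 2. At 1000 to 2000 UMIs it was 19.5% and 38.5%, and at 2000 to 5000 UMIs 33.4% and 48.9%. It was highest at 5000 to 10000 UMIs, at 53.1% and 54.4%, and lower again in the deepest droplets. Those of 10000 to 20000 UMIs were at 43.6% and 38.0%, and the 432 and 143 droplets of at least 20000 UMIs at 21.1% and 16.3%. The gap between the libraries was largest between 1000 and 5000 UMIs and had the opposite sign from 10000 UMIs on.

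Nuclear members followed depth less closely. In non-mitochondrial CPM they were at 48068 and 40869 in the shallowest droplets and at 46111 and 44551 in the deepest. Between these, suffix 1 reached 56029 at 2000 to 5000 UMIs, where suffix 2 was at 33544. At 10000 to 20000 UMIs the libraries were close, at 38917 and 37626. In T cells of 2000 to 5000 UMIs and of 10000 to 20000 UMIs the nuclear level was 22731 and then 23951 in suffix 1, and 20353 and then 24653 in suffix 2, so that it also moved with depth in suffix 2.

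**Figure D2:**
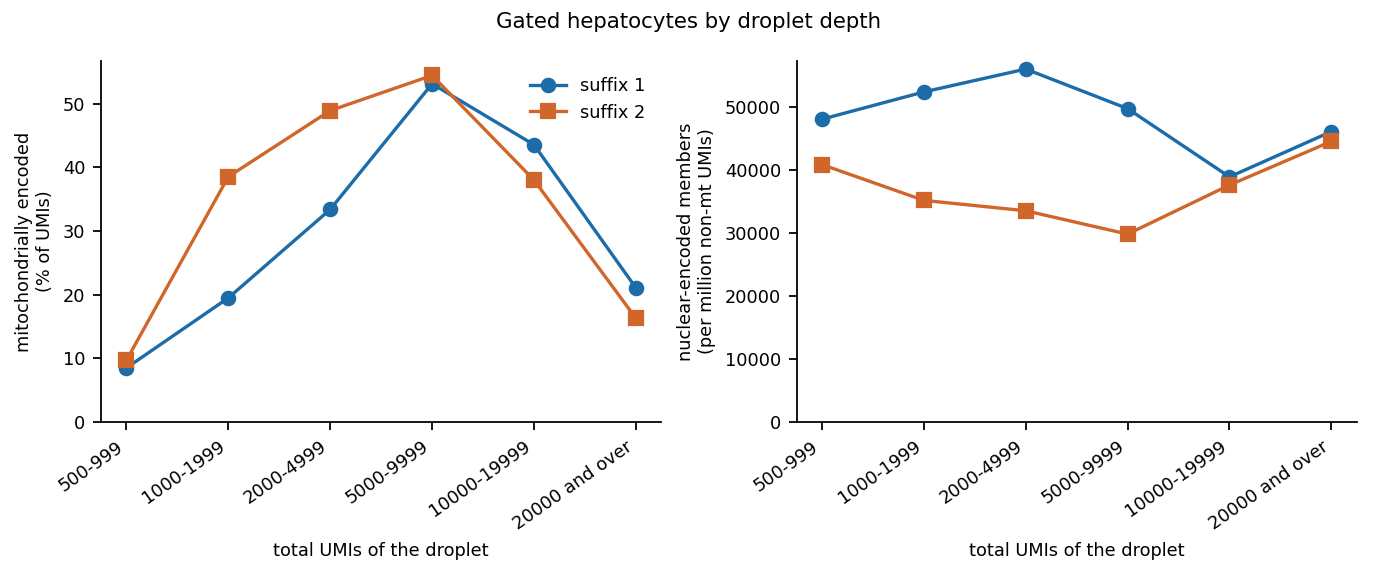
Gated hepatocytes are binned by the total UMIs of the droplet (x axis); the left panel plots the mitochondrially encoded percent of UMIs and the right panel nuclear-encoded members in non-mitochondrial CPM, for suffix 1 (circles) and suffix 2 (squares). The mitochondrial share peaks at 53.1% and 54.4% in droplets of 5000 to 10000 UMIs and is 21.1% and 16.3% in those of at least 20000.

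In deep hepatocyte droplets, a high mitochondrial share went with a low level of nuclear subunits even among the non-mitochondrial UMIs. At 5000 UMIs or more, nuclear members were at 74372 and 60453 non-mitochondrial CPM in droplets with a share under 5% (141 and 117 droplets). They were at 47065 and 42588 at a share of 10% to 25%, and at 22028 and 14231 at 50% to 75% (251 and 698 droplets). Above 75% they were at 22341 and 16952. In shallow droplets of 500 to 2000 UMIs the same order was seen with a smaller span, from 55662 and 45948 under 5% to 35771 and 27943 at 50% or more.

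Each complex was lower at 50% to 75% than under 5%, though not at every step between. With suffix 1, complex III was at 5950 non-mitochondrial CPM at 5% to 10% and at 6582 at 10% to 25%. Between the bins under 5% and at 50% to 75%, complex I was at 23693 against 7399 non-mitochondrial CPM with suffix 1 and at 20038 against 5579 with suffix 2. Complex II was at 1719 against 521 and at 1185 against 301, and complex III at 9731 against 2778 and 7523 against 1443. Complex IV was at 16320 against 5854 and 13703 against 3732, and complex V at 22910 against 5477 and 18005 against 3176. Ratios of single genes had 3 UMIs added to both sums and were taken for genes with at least 30 UMIs. Nuclear members past 2-fold in this direction were 73 of 82 (89.0%) with suffix 1, where 42.5% of all tested genes were, and 79 of 82 (96.3%) with suffix 2, where 56.7% were. Their median log2 ratio was 1.87 and 2.27, against 0.64 and 1.21 for other genes. Cytosolic ribosomal protein genes were alike, with 77 of 79 and 77 of 78 past 2-fold and medians of 1.79 and 2.24.

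Ndufv3, an accessory subunit of complex I, was among the most unequal in both libraries, at 616 non-mitochondrial CPM (660 UMIs) under 5% against 104 (78 UMIs) at 50% to 75% with suffix 1, and at 413 (513 UMIs) against 48.1 (87 UMIs) with suffix 2. Ndufa13, Ndufc2 and Cox6a1 were among the least unequal in both. Cox6a1 was at 436 against 274 non-mitochondrial CPM with suffix 1 and 369 against 211 with suffix 2, and Ndufc2 at 306 against 198 and 333 against 244. These members were named after their values were seen. Ribosomal protein UMIs moved along with the nuclear members, from 8.67% and 7.03% of non-mitochondrial UMIs under 5% to 2.55% and 1.54% at 50% to 75%. Hepatocyte markers moved the other way, from 8.998% and 12.8% to 15.96% and 17.9%. The part of free RNA, cell damage or cell state in these differences was not tested.

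**Figure D3:**
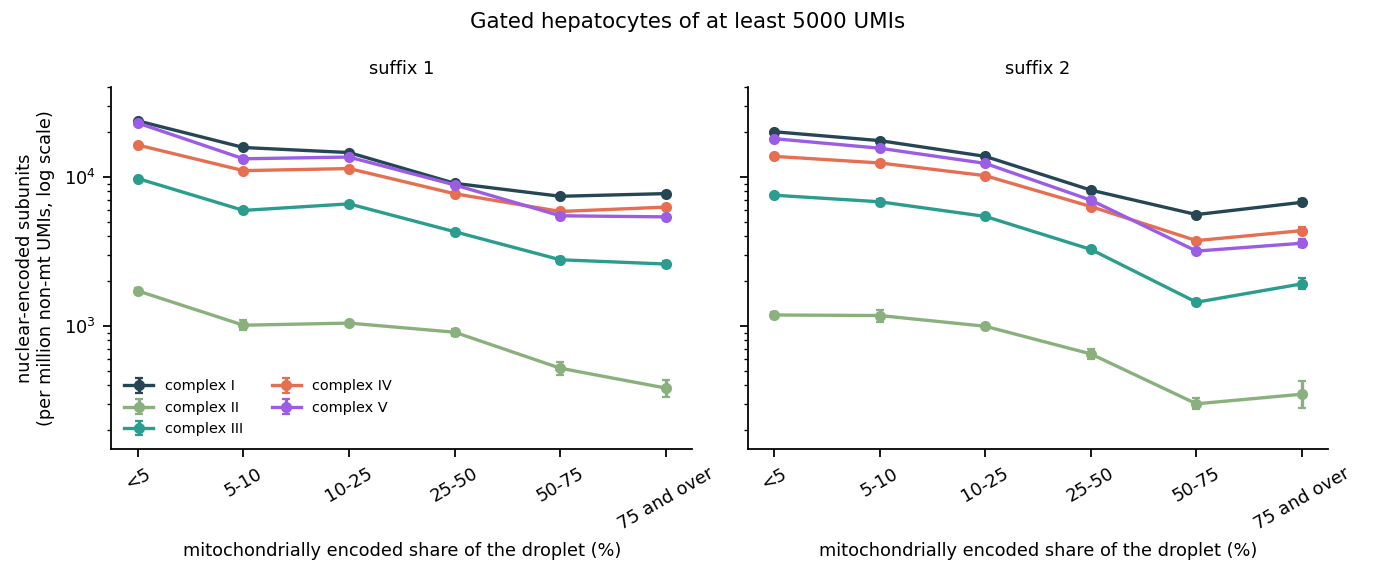
Nuclear-encoded members of complexes I to V in non-mitochondrial CPM (log axis) in gated hepatocytes of at least 5000 UMIs, binned by the mitochondrially encoded share of the droplet, for suffix 1 and suffix 2 with 95% Poisson intervals. All 5 complexes are lower at 50% to 75% than under 5%, complex V being at 5477 against 22910 in suffix 1 and at 3176 against 18005 in suffix 2.

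The mitochondrial makeup also moved with the share. mt-Co1 was at 17.3% and 15.5% of mitochondrial UMIs in deep hepatocytes with a share of 10% to 25% and at 13.5% and 11.9% at 75% or more. mt-Co3 was at 15.1% and 15.9% in the former and at 17.9% and 18.2% in the latter, and mt-Atp6 at 19.8% and 19.6% against 22.3% and 23.3%. At a share under 5%, mt-Co3 was at 20.5% (19.8% to 21.3%) with suffix 1 and had an interval of 19.5% to 20.5% with suffix 2, beside 19.6% and 20.2% in T cells.

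Gene by gene, hepatocytes were compared with T cells of the same library. In CPM of all UMIs, 15 of 85 tested nuclear members (17.6%) were past 2-fold higher in hepatocytes with suffix 1, against 13.2% of all genes, and 1 of 84 (1.19%) with suffix 2, against 9.67%. Lower past 2-fold were 1 with suffix 1, where 52.9% of all genes were, and 5 with suffix 2, where 63.2% were. The median log2 ratio of nuclear members was 0.68 and 0.10, against -1.13 and -1.68 for all genes. All 13 mitochondrial members were past 2-fold higher in both libraries. Most genes were thus lower in hepatocytes on this scale, and the nuclear members of the respiratory chain were mostly not.

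In non-mitochondrial CPM the counts were larger. Past 2-fold higher were 47 of 85 nuclear members (55.3%) with suffix 1, against 17.1% of all genes, and 19 of 84 (22.6%) with suffix 2, against 15.8%. Lower were 0, where 44.7% of all genes were, and 2 (Sdhaf2 and Cox7a2l), where 50.6% were. When hepatocytes were limited to droplets of at least 5000 UMIs and a share of at most 25%, in CPM, 26 of 83 were higher with suffix 1 (18.4% of all genes) and 44 of 83 with suffix 2 (19.4% of all genes). Lower were 1 and 0, against 43.4% and 43.3%. For nuclear members the order of the libraries was then the opposite of that over all hepatocytes. Of the 13 mitochondrial members, all were past 2-fold higher with suffix 1 under this limit and 6 with suffix 2. With the hepatocyte part of the T cell profile taken out, the ratio of the summed nuclear members in non-mitochondrial CPM was 3.43 and 2.09, against 2.16 and 1.70 before. That step took out too much in erythroid droplets with suffix 1, so these ratios may be too high.

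Among nuclear members, the largest ratios in both libraries included those of the complex III subunits Uqcr11 and Uqcrq. The ratios of 3 other small subunits of that complex, named after their values were seen, were lower. They were 2.42 and 1.47 for Uqcr10, 1.85 and 1.31 for Uqcrb and 1.03 and 0.675 for Uqcrh. Uqcr11 was at 986 CPM (976 to 995) in hepatocytes and 319 CPM (299 to 340) in T cells with suffix 1, a ratio of 3.08, and at 428 and 234 CPM with suffix 2, a ratio of 1.82. Uqcrq was at 1313.5 against 439.9 CPM (ratio 2.98) and at 718 against 341 CPM (ratio 2.10). It was the 1 nuclear member past 2-fold higher with suffix 2. Atp5g1, which encodes the c subunit of the ATP synthase rotor, followed with ratios of 2.53 and 1.61. The other nuclear members in the upper 5 with suffix 1 were Cox7a1 (359 against 6 UMIs) and Sdhd, at ratios of 2.81 and 2.45. With suffix 2 they were Ndufb9 and Ndufc1, at 1.66 and 1.60.

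The smallest ratios included those of assembly factors, a supercomplex protein and structural subunits. Sdhaf2, needed to attach FAD to Sdha, was at 15.3 CPM in hepatocytes and 37.7 CPM in T cells with suffix 1, a ratio of 0.397, and at 8.34 and 35.4 CPM with suffix 2, a ratio of 0.231. Cox7a2l, a factor of respiratory supercomplexes, was at 165 and 321 CPM (ratio 0.512) and at 94.5 and 319 CPM (ratio 0.296). Sdhaf1 had ratios of 0.566 and 0.456, whereas Sdhaf4 was at 1.37 and 0.831 and Sdhaf3 at 0.94 with suffix 1. Ndufs4 stood at 0.759 with suffix 1, and Atp5g2 and Sdhaf3 at 0.483 and 0.499 with suffix 2. Cox6a2 was also in this group with suffix 1, but from 33 and 1 UMIs. Cox7a2l stayed lower in deep hepatocytes of at most 25% share, at ratios of 0.578 and 0.562.

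Other genes of the pathway were counted in the same comparison, in CPM, to be read against the 13.2% and 9.67% of all genes that were past 2-fold higher, the 52.9% and 63.2% that were lower, and the medians of -1.13 and -1.68. Of 29 assembly factors of complexes I, III, IV and V, 1 was past 2-fold higher and 4 lower in hepatocytes with suffix 1, and 0 and 14 with suffix 2, with medians of -0.27 and -0.99 on the log2 scale of CPM. Of 10 genes of mitochondrial DNA expression, such as the factor Tfam and the polymerase Polrmt, none was higher in either library, and 3 were lower with suffix 1 and 6 of the 9 tested with suffix 2. Of 6 regulators, among them Ppargc1a, Nrf1 and Gabpa, 1 was higher and 2 lower with suffix 1 and 1 was higher and 5 lower with suffix 2. Of 12 genes of the TCA cycle, which feeds the chain, 4 were higher and 2 lower with suffix 1 and 0 and 3 with suffix 2. The electron carriers Cyc1 and Cycs were both past 2-fold higher with suffix 1 and neither with suffix 2. Ribosomal protein genes were lower in 82 and 85 of 88.

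Isoforms of complex IV separated 1 cell class from the rest. Cox6a2, the heart and skeletal muscle form of subunit 6A (chr7:128205435-128206387, minus strand, with Itgad annotated on the opposite strand), was at 1072 CPM (975 to 1177) in plasmacytoid dendritic cells of suffix 1 and 815 CPM (723 to 915) in those of suffix 2. These cells are the interferon-producing dendritic cells, and Cox6a2 was not among the markers of their gate. It was found in 54 of 62 droplets (87.1%) and in 46 of 53 (86.8%), with medians of 5.5 and 6 UMIs and at most 24 and 18. The signal was therefore spread over the droplets and not carried by a few.

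In the other 13 classes Cox6a2 was near 0, whereas droplets left out of all classes as mixed were at 108 CPM (519 UMIs) and 74.8 CPM (395 UMIs). T cells had 1 UMI in each library (0.333 and 0.376 CPM), and hepatocytes had 33 and 16 UMIs (0.768 and 0.442 CPM, 0.217% and 0.122% of droplets at medians of 1341 and 1789 UMIs). Over the other 13 classes, 36 of 16571 and 18 of 14086 droplets had a UMI. Conventional dendritic cells had 0 UMIs in both libraries, which at 3 UMIs per library allows up to 5.11 and 3.98 CPM. By the ratio of CPM in the gate to all other classes, with 3 UMIs added to both sums, Cox6a2 ranked 3 of 13754 genes with suffix 1 and 5 of 13301 with suffix 2. Its counterpart Cox6a1 was at 247 (201 to 300) and 261 CPM (211 to 320) in the same cells, so that Cox6a2 made up most of the subunit 6A transcripts there. Cox6a1 lay between 108 and 388 CPM over the 14 classes of suffix 1 and between 107.5 and 309 CPM over those of suffix 2, and plasmacytoid dendritic cells did not stand apart.

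The other muscle, lung or testis forms were close to absent. Cox7a1 was at 8.35 and 3.40 CPM in hepatocytes, beside 808 and 451 CPM of its broadly expressed counterpart Cox7a2. In cholangiocytes it was at 20.9 CPM (7.66 to 45.4, 6 UMIs) and 22.5 CPM (4.64 to 65.7, 3 UMIs). With suffix 1 this was the largest ratio of the top class to the median class, 6.16, among nuclear members with a median of at least 1 CPM over 13 classes. Cox4i2 had 2 UMIs in hepatocytes of each library, against 975 and 853 CPM of Cox4i1. Cox6b2 was at 0.256 and 0.138 CPM in hepatocytes, against 936 and 506 CPM of Cox6b1. Cox8a, whose muscle form Cox8b had 0 UMIs, was at 1100 and 642 CPM, and Cox7b at 715 and 367 CPM.

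The genes of the c subunit, which give the same mature protein, were used differently by class. Atp5g1 was at 943 and 601 CPM in hepatocytes, 525 and 517 CPM in cholangiocytes, 372 and 373 CPM in T cells and 218 and 224 CPM in Kupffer cells or macrophages. Atp5g2 was at 309.5 and 189.9 CPM in hepatocytes, 351 and 392 CPM in T cells and 501 and 502 CPM in cholangiocytes. Atp5g1 was thus above Atp5g2 in hepatocytes, and their intervals overlapped in T cells of both libraries. Atp5g3 was at 395.5 and 259.5 CPM in hepatocytes and 200.3 and 225 CPM in T cells.

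Cox5a, a structural subunit of complex IV named after its values were seen, had a high level in Kupffer cells or macrophages. Their nuclear members summed to a low level, yet Cox5a was at 549 CPM (522 to 577) and 695 CPM (666 to 724). In CPM of all UMIs this was second to hepatocytes (693 CPM) with suffix 1 and above them (490 CPM) with suffix 2. With suffix 2 mitochondrial UMIs filled 41.5% of the total in hepatocytes and 9.52% in these cells. In non-mitochondrial CPM Cox5a was higher in hepatocytes in both libraries. The other 12 classes lay between 197 and 444.4 CPM with suffix 1 and between 179 and 457 CPM with suffix 2. As a share of nuclear-member UMIs, Cox5a took 3.67% and 4.78% in these cells, against medians of 1.83% and 2.19% over 13 classes. Cox5b, its partner subunit, was at 204 and 183 CPM there, below the 510.1 and 293 CPM of hepatocytes. The annotation places Gm26631 on the opposite strand over Cox5a.

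Cox7a2l was lower in hepatocytes than in several leukocyte classes. It was at 337 and 395 CPM in monocytes, 327 and 312 CPM in B cells and 321 and 319 CPM in T cells, and at 303 and 329.9 CPM in cholangiocytes. In hepatocytes it was at 165 (161 to 169) and 94.5 CPM (91.4 to 97.7), and in erythroid droplets at 40.5 and 23.9 CPM. Hepatocytes did not overlap T cells, B cells, monocytes or Kupffer cells or macrophages (234 and 277.5 CPM) in either library.

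**Figure D4:**
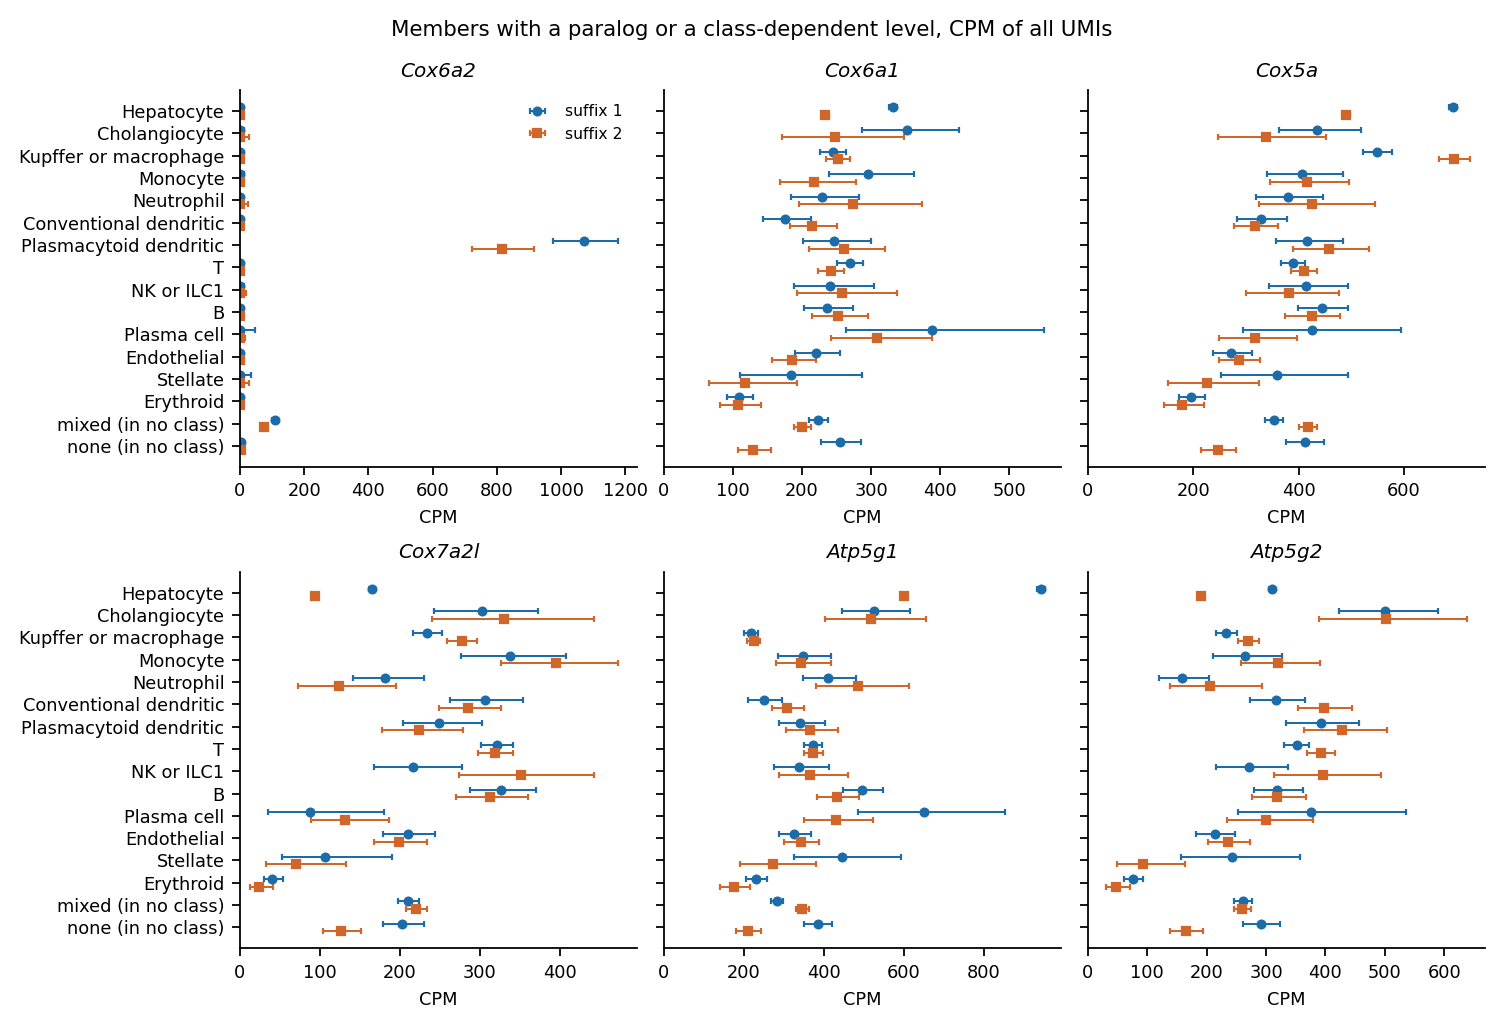
CPM of Cox6a2, Cox6a1, Cox5a, Cox7a2l, Atp5g1 and Atp5g2 in each gated class for suffix 1 (circles) and suffix 2 (squares), with 95% Poisson intervals. Cox6a2 reaches 1072 and 815 CPM in plasmacytoid dendritic droplets and is near 0 in the other classes, while Cox6a1 lies between 107.5 and 388 CPM in all of them. The rows "mixed" and "none" are droplets that entered no class.

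Which class held the highest level of a nuclear member depended on the library and on the scale. Among nuclear members that reached 20 CPM in a class, hepatocytes were the top class for 60 with suffix 1 and for 7 with suffix 2. Cholangiocytes were the top class for 11 and 45, from only 22 and 14 droplets. Read as a mixture, 34.1% and 15.4% of their profile would be hepatocyte RNA. These counts are in CPM of all UMIs, and in non-mitochondrial CPM hepatocytes were the top class for 75 and 60 of the same members and cholangiocytes for 2 and 10. Nuclear members were also ordered by the ratio of the top class to the median class. Cox7a1 was followed with suffix 1 by Uqcrq (2.99), Atp5g1 (2.72), Sdhaf3 (2.67, from 3 UMIs in stellate cells) and Sdhaf2 (2.36). With suffix 2 the largest ratios of nuclear members were those of Ndufv1 (2.56), Ndufa6 (2.44), Sdhaf3 (2.40), Ndufs7 (2.38) and Sdhaf1 (2.31, from 5 UMIs in neutrophils). The top class of Ndufv1, Ndufa6 and Ndufs7 was the cholangiocyte gate, with 16, 71 and 36 UMIs. Cox6a2 has no such ratio, since its median class was at 0.

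Between the libraries, hepatocytes of at least 5000 UMIs differed little in single nuclear members. Past 2-fold higher with suffix 1 were 2 of 84 (Cox7a1 and Ndufb1-ps), against 7.11% of all genes, and lower were 0, against 1.71%. The median log2 ratio was 0.38 for nuclear members and 0.40 for all genes. In non-mitochondrial CPM the medians were 0.19 and 0.21, with 0 members past 2-fold higher or lower where 4.40% and 2.46% of all genes were. The number past 2-fold was thus no larger than over all genes. The ratio was 2.17 for Cox7a1 (202 against 64 UMIs), 2.09 for Ndufb1-ps (329 against 157 CPM), 1.98 for Atp5md (481 against 242.5 CPM), 1.93 for Uqcr11 and 1.92 for Atp5k. At the other end were Ndufa4l2 at 0.839 (29 against 24 UMIs), Ndufb5 at 0.962, Ndufb8 at 0.975, Cox4i1 at 783 against 771 CPM, and Ndufc2 at 1.03.

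These small differences between the libraries were alike in several cell types, though less so in erythroid droplets. Atp5k, a small membrane subunit of ATP synthase, had a log2 ratio of suffix 1 to suffix 2 of 0.75 in deep hepatocytes, 0.59 in T cells, 0.66 in Kupffer cells or macrophages and 1.03 in B cells, in non-mitochondrial CPM. Cox4i1 was at -0.17, -0.19, -0.20 and -0.16, and Ndufb5 at -0.25, -0.33, -0.33 and 0.04. Over members with at least 100 UMIs, the ratio in deep hepatocytes and that in T cells had a Pearson r of 0.82 and a Spearman rho of 0.78 (81 genes). With Kupffer cells or macrophages these were 0.78 and 0.75 (80 genes), and with B cells 0.79 and 0.76 (74 genes). With erythroid droplets they were lower, at 0.57 and 0.53 (55 genes). This is a correlation across genes, which are not independent, and the classes of a library share its preparation, its sequencing and its free RNA.

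The ratio was also read by transcript length, and it did not fall steadily with it. The 5 nuclear members under 400 nucleotides had a median log2 ratio of 0.75 in deep hepatocytes, the 27 members of 600 to 1000 nucleotides, the lowest bin, one of 0.01, and the 23 of 1000 to 2500 nucleotides one of 0.19. In T cells the medians were 0.54 (4 members) and -0.09 (27 members). Other genes under 400 nucleotides were at 0.38 in deep hepatocytes and 0.17 in T cells, those of 600 to 1000 at 0.07 and -0.10, and those of 2500 or more at 0.29 and 0.04. Members in erythroid droplets were at 0.74 under 400 nucleotides, 0.40 in the bin of 600 to 1000 and 0.66 in that of 1000 to 2500. Over the members with at least 100 UMIs, the Spearman rho of the ratio with transcript length was -0.30 in deep hepatocytes (83 genes), -0.40 in T cells (81 genes), -0.39 in B cells (74 genes), -0.18 in Kupffer cells or macrophages (80 genes) and -0.07 in erythroid droplets (55 genes). The genotypes, the livers and the library preparations differ together between the suffixes and cannot be told apart.

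**Figure D5:**
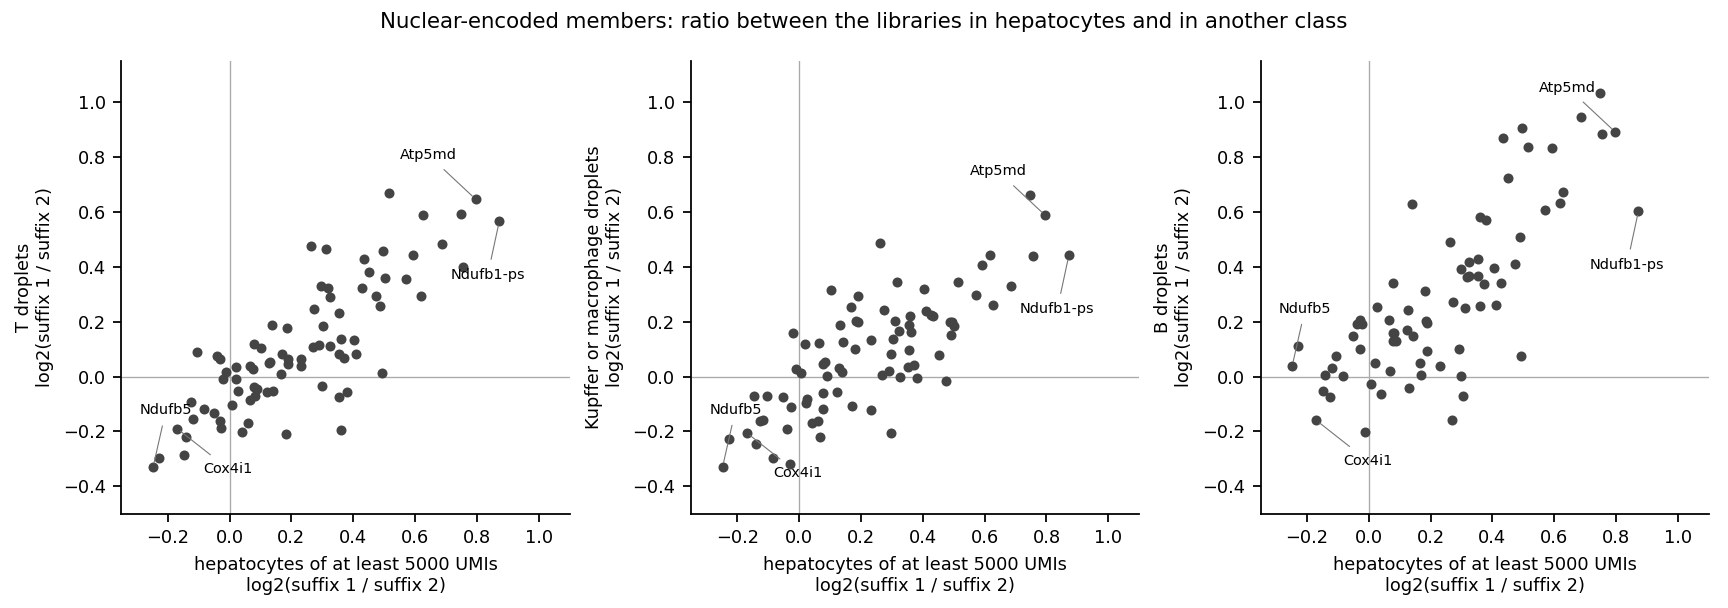
Each point is a nuclear-encoded member with at least 100 UMIs in both classes; the x axis is its log2 ratio of suffix 1 to suffix 2 in gated hepatocytes of at least 5000 UMIs and the y axis the same ratio in T cells, Kupffer cells or macrophages, or B cells, in non-mitochondrial CPM. Members high on one axis tend to be high on the other (Pearson r of 0.82, 0.78 and 0.79 across 81, 80 and 74 genes). Atp5md and Ndufb1-ps lie toward the upper end and Cox4i1 toward the lower, as does Ndufb5 except on the B cell axis (0.04).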

How the data were processed

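Single-cell suspensions of 2 perfused and digested livers, purified on 35% Percoll, were captured with 10x Genomics 3' v3.1 chemistry, 1 lane per sample. The deposited matrix holds UMI counts as whole numbers for each gene in each barcode. The submitters' processing notes name Cell Ranger 7.1.0 and mm10 as what the authors used, with STAR 2.7.2a and bcl2fastq 2.20.0. How libraries were joined and whether introns were counted were not given in the sources used here.

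Droplets with at least 500 UMIs and 200 genes were kept (32266 of 32316, 112357086 UMIs), with no mitochondrial limit, since that share is the readout. A class other than hepatocyte needed at least 3 of its markers, marker UMIs of at least 0.05% of non-mitochondrial UMIs (5% for erythroid), no second class (T over NK) and under 10% hepatocyte-marker UMIs. Droplets with no such class and at least 6% hepatocyte-marker UMIs were hepatocytes. Those in conflict (491 and 650, left out as possible doublets; no caller was run) or in no gate (168 and 185) entered no class. Near the 6% limit lay 344 and 355 droplets. Hepatocyte droplets that fell just short of the 3 markers of another class were 2013 and 1311. Thresholds were set after the data were seen, and members, markers and lists were chosen with earlier results of these data known.

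Summed UMIs of a class are printed as CPM, with exact Poisson intervals, and shares with exact binomial (Clopper-Pearson) intervals. Ratios had 3 UMIs added to both sums, covered genes with at least 30 UMIs, and were called past 2-fold. Named genes are those of the fixed rule: the ends of each complex, isoforms and paralogs, and the 5 largest and 5 smallest ratios, with the 5 largest of top to median class; others are said to be named after their values were seen. The fold script was tested on simulated data. Alternatives were 6 planned and 3 added after the data were seen, 1 of which (the scale of the top-class counts) is given in the report only. The planned comparison of genotypes was not made, since the labels do not say which suffix is which liver. Python 3.11.15 with numpy 2.4.6, scipy 1.17.1 and pandas 2.3.3 was used.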

Additional observations from a re-analysis of the deposited data

Results flagged for a closer look

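Cox6a2 was also found outside the classes of the report. Droplets left out because they met more than 1 gate or carried hepatocyte markers held 519 Cox6a2 UMIs in suffix 1 and 395 in suffix 2, beside 443 and 287 in the plasmacytoid dendritic gate. They are given here because these droplets entered no comparison of the report; that the counts are above 0 is no test. These UMIs lay in 73 and 68 such droplets, of which 71 and 68 also had the number of plasmacytoid dendritic markers that the gate asks for. Of the 1003 and 703 Cox6a2 UMIs in kept droplets, 44.2% (41.1% to 47.3%) and 40.8% (37.2% to 44.6%) were in the plasmacytoid dendritic gate. Whether these are doublets or plasmacytoid dendritic cells with RNA of other cells was not tested.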

How the results depend on the processing

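Of 54 alternative values, 41 moved by more than their counting interval (counts of members: by over 1.5 times) and 13 did not. Of these 13, 4 could not move, since a minimum under 5000 UMIs leaves hepatocytes of at least 5000 UMIs as they are, and for that result both settings with a limit of 25% are the same. The ratio of summed nuclear members in hepatocytes over T cells stayed above 1 in all settings run. With suffix 2 it was as low as 1.01 with a stricter gate, which is close to no difference. The cause of the moves was not tested. The order of the libraries was the opposite of the reported one for all 4 results in hepatocytes of at least 5000 UMIs with a share of at most 25%. No paired analysis was possible because each group has 1 library and no label ties a library to a sample. The denominator gives no alternative for the mitochondrial share or for mitochondrial UMIs per nuclear UMI.

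The mitochondrial share of hepatocytes (27.6% and 41.5%) was 41.5% with suffix 2 (41.54) with no minimum of UMIs or genes, 10.2% and 10.9% with a share of at most 25%, 29.1% and 42.6% with at least 1000 UMIs, 20.7% and 38.5% as a mean over droplets, 28.6% and 43.0% with a stricter gate, and 15.9% and 14.4% with at least 5000 UMIs and a share of at most 25%. The ratio of nuclear members, hepatocytes over T cells (1.65 and 1.08), was 2.203 and 2.12, 1.62 and 1.06 (1.055), 1.85 and 1.152, 1.67 (1.665) and 1.01, and 1.92 and 2.06 in the last 5 of these settings, 2.16 and 1.70 in non-mitochondrial CPM, and 3.43 and 2.09 with the hepatocyte part of T cells removed. Mitochondrial UMIs per nuclear-member UMI in hepatocytes of at least 5000 UMIs (10.1 and 17.7) were 3.82 and 3.59 at a share of at most 25%, 66.9 and 104.8 as a mean over droplets, and 12.9 and 21.6 with a stricter gate. The number of nuclear members past 2-fold (15 and 1) was 52 and 47 at a share of at most 25%, 26 and 44 with at least 5000 UMIs as well, 47 and 19 in non-mitochondrial CPM, 33 with suffix 1 as a mean over droplets, and 0 with suffix 2 with a stricter gate. A limit on the mitochondrial share cuts on the readout itself, so the nearness of the libraries under it is in part set by the limit. Rare classes are limited by their droplets, 14 for cholangiocytes with suffix 2 and 5 for plasma cells with suffix 1.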

Other observations

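Among the leading genes of the plasmacytoid dendritic gate were a pair besides Cox6a2 that are known from striated muscle, while other muscle forms were at or near 0 there, Cox7a1 having 1 and 0 UMIs and Cox8b 0 in both libraries. Pgam2, the muscle form of phosphoglycerate mutase, was at 208 CPM (86 UMIs) with suffix 1 and 79.5 CPM (28 UMIs) with suffix 2, against 0.149 and 0.0655 CPM in all other classes. Atp2a1, the calcium pump of fast muscle fibres, was at 138 CPM (57 UMIs) and 88.0 CPM (31 UMIs), against 0.0746 and 0.0655 CPM. Both were picked after their values were seen, with no list of muscle genes, and the gate's marker Siglech was at 2319 and 1928 CPM.

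Nuclear members were also read along the lobule axis in hepatocytes of at least 5000 UMIs and at most 25% mitochondrial share. With suffix 1, the 11 droplets with over 50% of zonation-marker UMIs from pericentral genes were at 49831 non-mitochondrial CPM, the 34 with 25% to 50% at 49781 and the 609 with at most 25% at 49389. Their median mitochondrial shares were 1.97%, 11.9% and 15.9%, so the sets also differ in that share, and its part was not tested. With suffix 2, 27 droplets with 25% to 50% were at 49281 and 457 with at most 25% at 46656.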
